A study of Chlamydomonas reinhardtii with 45 samples.

Results

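*CCM1* (Cre02.g096300) and *LCR1* (Cre09.g399552) encode the transcriptional regulators of the carbon concentrating mechanism of the green alga *Chlamydomonas reinhardtii*. Both were found in the table by their gene symbols, and they are 2 of the 17609 genes in the deposited expression table. Their mRNAs were followed in 3 light regimes and at 5 timepoints of the day, together with the mRNAs of their known targets *HLA3* (Cre02.g097800) and *CAH1* (Cre04.g223100). Each gene is given by its locus identifier from version 6.1 of the annotation, since coordinates of that build were not used here.

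*Chlamydomonas* takes up inorganic carbon with a set of transporters and carbonic anhydrases that raise the CO2 concentration around Rubisco, and most of these genes are transcribed when CO2 is scarce. CCM1, also known as CIA5, is a zinc-finger protein without which the genes of the mechanism are not induced. It is thought to be controlled after transcription. LCR1 is a Myb-type transcription factor whose own induction at low CO2 requires CCM1, and which sustains the expression of *CAH1* and other genes.

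The cells were of strain CC-5390, a wall-deficient background (cw15) in which an arginine requirement was rescued with *ARG7*, so every group shares these alleles. They were grown photoautotrophically in photobioreactors bubbled with ambient air, with 12 h of light at 28 °C and 12 h of dark at 18 °C. The light was 50 µmol photons m−2 s−1 for the low light (LL) population, 200 for medium light (ML), and 1000 for high light (HL), and the LL cells spent their first week at ML before the light was lowered. Poly(A) RNA was collected 2 h before the start of the light period (−2), 2, 6, and 10 h into it (+2, +6, +10), and 10 h before the next one (−10), so that −2 and −10 are in the dark. The 15 groups hold 3 experimental replicates each, 45 libraries in all, and the methods describe experimental replicates as independent experiments carried out in separate weeks. Each population was followed over the day, so libraries of different timepoints may come from the same culture, and the fit takes all 45 as independent. With the culture as a random effect, no call of *CCM1*, *LCR1*, *HLA3*, or *CAH1* differed. For this fit, libraries of 1 population with the same replicate number were assumed to be 1 culture. Its correlation within a culture, 1 value for all genes, was −0.0024. The fit was therefore almost the same as the one without it and cannot show whether these libraries are independent.

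mRNA abundance is given in FPKM (fragments per kilobase of transcript, scaled to the mapped fragments of the library), so levels of different genes can be set beside each other. The table holds no read counts, so relative depth was derived from the spacing of the lowest values. Relative to replicate 1 of ML at −2, it was lowest in replicate 1 of LL at −2, at 0.168, and lay between 0.582 and 1.36 in the others. The regulators were read in every library. The lowest value of *CCM1* was 10.7 FPKM and that of *LCR1* was 1.95 FPKM. Both passed the filter for testing, which required 1 FPKM or more in 3 or more libraries and left 14602 genes. In these cultures a smaller share of cells that express a gene and less mRNA per cell cannot be told apart.

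The level of *CCM1* mRNA followed the time of day, and no difference between light levels was called. Its mean was highest at +2 and lowest at +6 in all 3 populations, and the 15 differences between populations all missed the test. At −2, the LL libraries held 23.8, 28.7, and 30.1 FPKM, the ML libraries 25.9, 27.7, and 22.4 FPKM, and the HL libraries 24.3, 27.7, and 26.8 FPKM, so the 3 populations overlapped. At +2, the values were 29.8, 32.9, and 34.0 FPKM in LL, 33.0, 33.6, and 34.9 FPKM in ML, and 29.0, 29.9, and 34.5 FPKM in HL. The means were the highest of the day, and again the populations overlapped.

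At +6, *CCM1* had dropped to 12.8, 12.5, and 13.2 FPKM in LL, 12.0, 11.1, and 10.7 FPKM in ML, and 12.1, 12.0, and 11.5 FPKM in HL. Here the LL libraries lay just above all those of ML and HL, by less than 1 FPKM between the nearest libraries. At +10, the values were 15.7, 16.9, and 17.8 FPKM in LL, 14.6, 16.5, and 12.1 FPKM in ML, and 16.4, 15.2, and 16.5 FPKM in HL. At −10, they were 19.7, 15.5, and 14.7 FPKM in LL, 16.9, 17.4, and 18.7 FPKM in ML, and 15.3, 17.2, and 14.8 FPKM in HL. In the evening and the first part of the night the mRNA therefore sat between its morning and afternoon levels, with no separation of the populations.

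**Figure D1:**
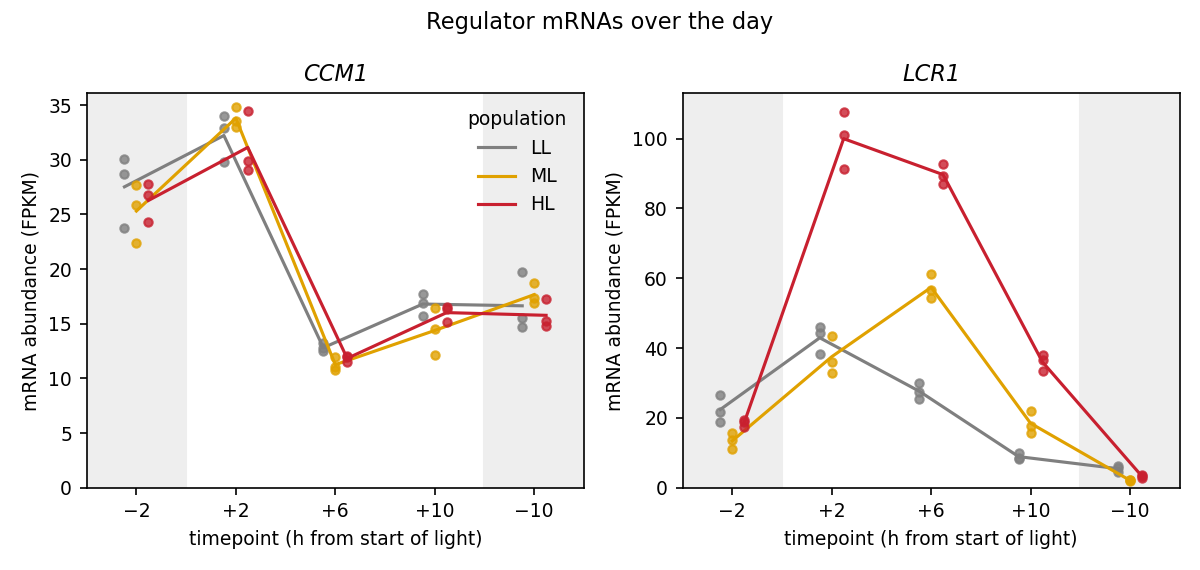
mRNA abundance (FPKM, linear axes from 0) of *CCM1* and *LCR1* at 5 timepoints in LL, ML, and HL; points are single libraries (n = 3), lines join the means, and grey bands mark the dark. The 3 *CCM1* curves lie close together, from 31.1 FPKM in HL at +2 to 11.8 at +6, whereas *LCR1* at +2 lay from 91.4 to 108 FPKM in HL and from 32.9 to 43.5 in ML.

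Light effects were tested with limma on log2(FPKM + 1), in 1 model of all 15 groups, and *p* values were adjusted by the Benjamini-Hochberg method over the 14602 genes within each comparison. An mRNA was called changed when its log2 fold change exceeded 1 in size and its adjusted p was below 0.01. Fold changes on this scale are understated for low values. LL vs ML and HL vs ML share the ML libraries, and each is therefore given on its own. For *CCM1*, the 15 log2 fold changes lay between −0.16 and 0.22, with a standard error of 0.10, and the outer bounds of their 95% intervals were −0.36 and 0.42. The lowest adjusted p of the 15 comparisons was 0.0762, for LL vs ML at +10, where the log2 fold change was 0.22 (95% interval 0.015 to 0.42). At +2, the log2 fold change of *CCM1* was −0.069 (95% interval −0.27 to 0.13) in LL and −0.12 (−0.32 to 0.085) in HL. The shares of all genes called at −2, +2, +6, +10, and −10 were 2.94%, 7.51%, 3.88%, 4.95%, and 4.85% in LL vs ML. In HL vs ML they were 0.507%, 5.96%, 2.01%, 3.68%, and 1.08%, and in HL vs LL 1.91%, 5.15%, 3.06%, 5.37%, and 4.76%, against none of the comparisons for *CCM1*. Of the 15 pairs of populations, 13 overlapped in *CCM1*, and the exceptions were LL against ML and LL against HL at +6. Genes with the libraries of LL wholly above those of ML at +6 made up 21.7% of all tested, and 16.8% had those of HL wholly below those of LL.

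Of the variance of *CCM1* over the 45 libraries on the log2 scale, 94.7% lay between timepoints, 0.408% between light levels, and 1.29% in their interaction. The median gene had 83.6%, 1.88%, and 6.93%, and the share of *CCM1* between light levels was at the 18.0th percentile of all tested genes. The range of its daily means was near the middle of all genes, at the 44.98th percentile in LL, the 40.9th in ML, and the 40.6th in HL.

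One step of the day was called for *CCM1*, the fall from +2 to +6. Between these timepoints it fell by 1.26 on the log2 scale in LL (adjusted p = 3e-13), by 1.51 in ML (adjusted p = 1.5e-15), and by 1.32 in HL (adjusted p = 1.15e-13). Genes that decreased by this rule over the same step made up 9.88% of all tested in LL, 14.5% in ML, and 9.79% in HL. From −10, taken after the sampled day, to −2, taken in the dark before it, the log2 fold change was 0.70 in LL, 0.49 in ML, and 0.70 in HL. It was below the fold threshold in each. The mean at +2 was 2.51 times that at +6 in LL, 3.00 times in ML, and 2.63 times in HL. The rise from −2 to +2 was 0.22 in LL, 0.41 in ML, and 0.23 in HL, and was not called in any. In HL it turned to −0.10 under quantile normalization. Over all 5 timepoints the F test of limma passed in each population, with adjusted p of at most 5.24e-14, as it did for 92.5%, 96.1%, and 94.7% of all genes in LL, ML, and HL.

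*LCR1* mRNA moved with both the time of day and the light. At +2, it was 2.66 times as abundant in HL as in ML, in the afternoon and evening it was ordered LL, ML, HL from low to high, and in the dark it was lowest in ML. At −2, the LL libraries held 26.7, 21.7, and 18.9 FPKM, the ML libraries 13.6, 11.1, and 15.6 FPKM, and the HL libraries 19.0, 17.5, and 19.5 FPKM. Every ML library was below all the others, and LL and HL overlapped. At +2, the values were 46.1, 44.4, and 38.5 FPKM in LL, 43.5, 32.9, and 36.2 FPKM in ML, and 108, 101, and 91.4 FPKM in HL. All 3 HL libraries stood far above the rest, while LL and ML overlapped.

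At +6, *LCR1* reached 25.5, 27.4, and 30.2 FPKM in LL, 56.7, 54.3, and 61.2 FPKM in ML, and 92.7, 89.4, and 87.0 FPKM in HL, and no population overlapped another. At +10, the values were 8.30, 8.43, and 10.1 FPKM in LL, 15.8, 17.6, and 22.1 FPKM in ML, and 36.6, 37.9, and 33.6 FPKM in HL, again in separate ranges and in the same order. At −10, they were 5.71, 4.55, and 6.20 FPKM in LL, 2.12, 2.32, and 1.95 FPKM in ML, and 3.66, 2.78, and 3.46 FPKM in HL. The populations were still apart at −10, but LL was now the highest and ML the lowest.

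In HL vs ML, *LCR1* was called at +2, where it was higher by 1.40 on the log2 scale (SE 0.13, adjusted p = 6.96e-11). Genes that increased made up 4.51% of all tested in that comparison. At the other timepoints it did not reach the fold threshold, although the 3 HL libraries were above the 3 ML libraries at all 5 timepoints. The log2 fold changes were 0.46 (adjusted p = 0.0425) at −2, 0.64 (adjusted p = 0.000307) at +6, 0.94 (adjusted p = 5.78e-07) at +10, and 0.45 (adjusted p = 0.0138) at −10. Genes with HL libraries wholly above those of ML made up 10.6% of all tested at −2, 30.3% at +2, 21.3% at +6, 23.1% at +10, and 16% at −10. At +10, the value was 1.11 without replicate 3, past the threshold.

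In LL vs ML, *LCR1* was called in opposite directions by day and by night. It fell by 1.03 at +6 (adjusted p = 9.43e-08), where 1.92% of all genes decreased, and it rose by 1.04 at −10 (adjusted p = 4.66e-08), where 2.85% increased. Both values were close to the fold threshold, and that at −10, where levels are low, was 1.31 with a pseudocount of 0.1 in place of 1. In the fit as given, the call ended at −0.98 without replicate 1 at +6 and at 0.92 without replicate 3 at −10. Quantile normalization also ended both, at −0.80 and 0.96, and median scaling that at −10, at 0.998. The other log2 fold changes were 0.70 (adjusted p = 0.000114) at −2, 0.20 (adjusted p = 0.227) at +2, and −0.96 (adjusted p = 1.82e-07) at +10. The value at +10 was past the threshold without replicate 1, at −1.02. At +2, LL and ML thus differed by less than the test could separate, with a 95% interval of −0.062 to 0.45. Genes wholly lower in LL than in ML made up 23.2% of all tested at +6 and 31.6% at +10, and 14.5% were wholly higher at −2 and 23% at −10. At −2, LL replicate 1 is the library of lowest depth, and without it the difference was 0.57 (adjusted p = 0.00347).

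At +6 and +10, the widest differences of *LCR1* lay between HL and LL, a comparison that uses no ML library. *LCR1* was higher in HL by 1.20 at +2 (adjusted p = 1.68e-09), by 1.66 at +6 (adjusted p = 2.61e-12), and by 1.90 at +10 (adjusted p = 5.02e-14). Genes higher in HL by the same rule made up 2.75%, 1.94%, and 2.23% of all tested. Under quantile normalization the value at +2 was 0.996, just short of a call. In the dark the sign turned, to −0.59 (adjusted p = 0.000387) at −10 and −0.24 (adjusted p = 0.198) at −2, and neither passed the fold threshold. The HL and LL libraries were separate at −10 and overlapped at −2. Genes wholly higher in HL than in LL made up 27.2% of all tested at +2, 24.5% at +6, and 33.9% at +10, and 26% were wholly lower at −10.

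**Figure D2:**
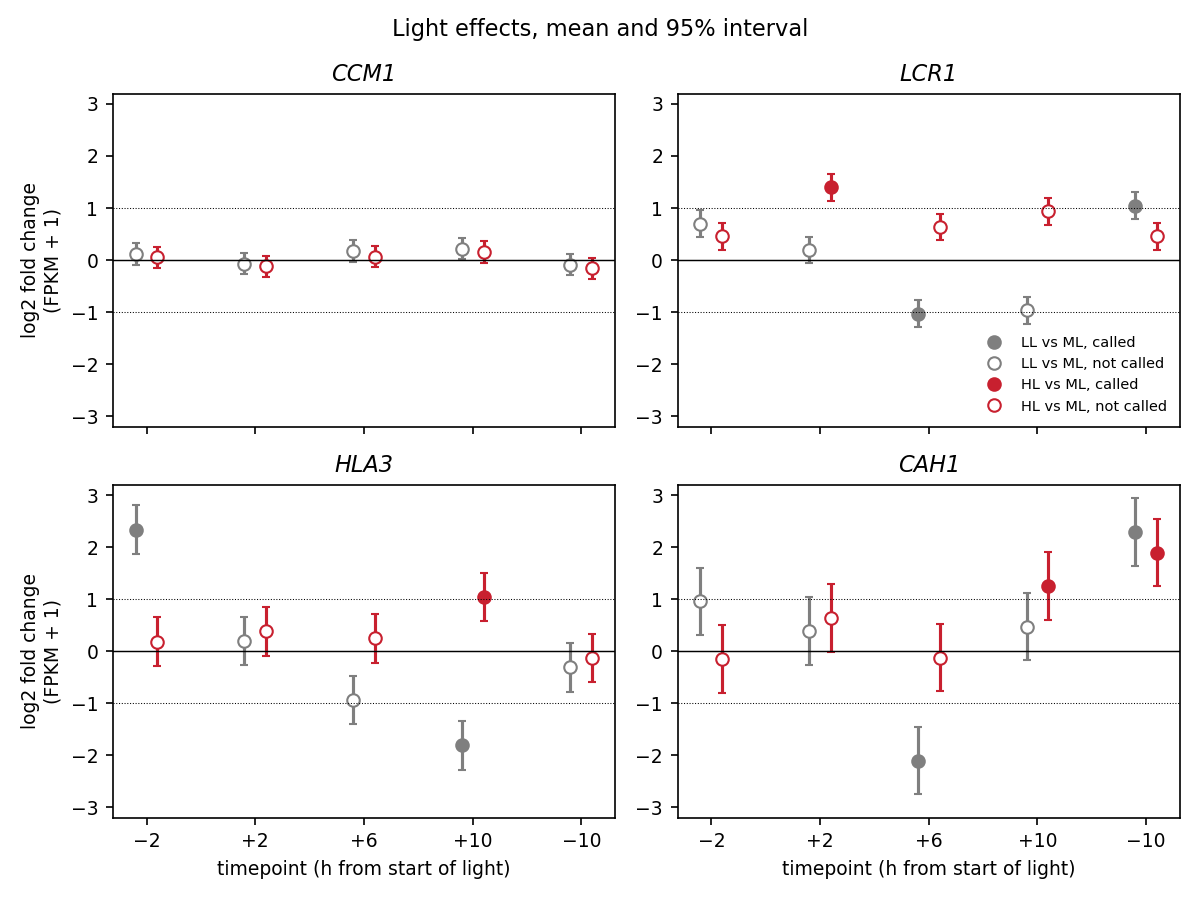
Log2 fold changes of log2(FPKM + 1) in LL and in HL relative to ML for *CCM1*, *LCR1*, *HLA3*, and *CAH1* at 5 timepoints, with 95% intervals from limma; filled points passed the test and dotted lines mark the fold threshold of 1. *CCM1* stays near 0 throughout, *LCR1* in HL peaks at 1.40 at +2, and the *HLA3* effect in LL runs from 2.34 at −2 to −1.81 at +10.

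Whether the light effect itself changed between timepoints was tested with interaction contrasts, called at an adjusted p below 0.01. For *LCR1*, the HL vs ML effect at +2 exceeded that at −2 by 0.94 (adjusted p = 0.00015) and that at +6 by 0.76 (adjusted p = 0.00122). Such differences were called for 15.6% and 19.2% of all genes. The first was not called without replicate 2, at 0.93, and the second neither without replicate 1 or 2, at 0.85 and 0.70, nor after quantile normalization, at 0.57. The excess over +10 was 0.46 (adjusted p = 0.0437) and was not called, against 24.6% of genes. The LL vs ML effect at +2 exceeded that at +6 by 1.22 (adjusted p = 1.39e-06) and that at +10 by 1.16 (adjusted p = 2.23e-06), against 22.4% and 34% of genes. Its difference from −2 was −0.50 (adjusted p = 0.0324) and was not called, against 18.2% of genes. None of the 6 contrasts was called for *CCM1*, with a lowest adjusted p of 0.0972.

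The course of *LCR1* over the day differed between populations. Its mean was highest at +2 in LL and HL and at +6 in ML, and lowest at −10 in all 3. From −2 to +2 it rose by 2.36 in HL (adjusted p = 3.44e-18) and by 1.42 in ML (adjusted p = 2.49e-12). In LL, the same step was 0.92, below the threshold, and 1.05 and called without the shallow LL library. The increases called over this step covered 17.5% of genes for LL, 20.2% for ML, and 19.7% for HL.

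From +2 to +6, the log2 fold change of *LCR1* was −0.62 (adjusted p = 7.56e-05) in LL, 0.61 (adjusted p = 6.92e-05) in ML, and −0.15 (adjusted p = 0.307) in HL, none past the fold threshold. From +6 to +10 it fell by 1.53 in LL, 1.60 in ML, and 1.29 in HL, all called, against decreases in 6.16%, 11.2%, and 12.3% of genes. Into the dark, from +10 to −10, it fell by 2.63 in ML and 3.11 in HL, both called, and the value in LL was −0.62, which was not. Over this step, decreases covered 18.2% of genes for LL, 26.3% for ML, and 22.8% for HL, and the median of all genes was −0.11 in LL and −0.13 in ML.

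*LCR1* was also higher late in the dark, at −2, than early in it, at −10. The libraries of −2 were taken before the sampled day and those of −10 after it, so this step joins different nights. From −10 to −2, the log2 fold change was 1.85 in LL (adjusted p = 1.03e-14), 2.19 in ML (adjusted p = 6.68e-17), and 2.20 in HL (adjusted p = 7.88e-17). Increases over the same step covered 9.5%, 11%, and 9.13% of genes. The highest daily mean was 7.83 times the lowest in LL, 26.9 times in ML, and 30.3 times in HL. The range of *LCR1* on the log2 scale stood at the 83.9th percentile of all genes in LL, the 91.5th in ML, and the 95.3rd in HL.

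Of the variance of *LCR1*, 83.1% lay between timepoints, 6.37% between light levels, and 9.77% in their interaction, and the spread between replicates held 0.763%. Its share between light levels was at the 81.1st percentile. In the order of the 15 group means, the highest were HL at +2 (from 91.4 to 108 FPKM), HL at +6 (89.7 ± 2.88 FPKM, SD, n = 3), and ML at +6 (57.4 ± 3.50), and the first pair overlapped. LL at +2, ML at +2, and HL at +10 followed, and each overlapped its neighbour in this order, as did LL at +6, LL at −2, HL at −2, and ML at +10. The 5 lowest groups were ML at −2, LL at +10, LL at −10, HL at −10, and ML at −10, each with a range of its own, down to 2.13 ± 0.187 FPKM. For *CCM1*, 12 of the 14 neighbouring pairs in the order overlapped. The breaks came below ML at −2, which parts the −2 and +2 groups from all others, and between LL and HL at +6.

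*HLA3* encodes an ABC transporter that carries bicarbonate across the plasma membrane. Its mRNA changed over the day far more than that of either regulator, from its lowest level at −10 to its highest at +2. At +2, the libraries held 3817, 3173, and 2646 FPKM in LL, 3222, 2546, and 2588 FPKM in ML, and 3699.6, 3657, and 3487 FPKM in HL. The HL libraries were all above the ML libraries, but the log2 fold change was 0.38 (adjusted p = 0.196) with a 95% interval of −0.082 to 0.85, and it was not called. At +6, the group means were 1289 ± 40.2 FPKM in LL, 2469 ± 30.4 in ML, and 2928 ± 110.4 in HL (SD, n = 3 each). The log2 fold change of LL from ML was −0.94 (adjusted p = 0.00176), short of the fold threshold, and −1.12 under quantile normalization, past it.

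At +10, *HLA3* stood at 69.4, 48.4, and 94.97 FPKM in LL, 212, 229, and 292 FPKM in ML, and 538, 489, and 473 FPKM in HL, in the same order as *LCR1* and without overlap. It fell by 1.81 in LL (adjusted p = 9.24e-08) and rose by 1.04 in HL (adjusted p = 0.000603), where 1.38% and 3.24% of genes did. The HL call was lost without replicate 1, at 0.89, and without replicate 2, at 1.02. At −2, the values were 163, 71.9, and 68.0 FPKM in LL, 16.3, 12.7, and 26.0 FPKM in ML, and 23.1, 17.1, and 20.5 FPKM in HL, so all LL libraries were above the others. The increase in LL was 2.34 (adjusted p = 1.93e-09), against 1.62% of genes, and 1.93 without the shallow replicate 1, which held the highest value. At −10, the means were 5.35 ± 0.628 FPKM in LL, 6.94 ± 1.58 in ML, and 6.19 ± 0.510 in HL, and no difference was called.

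**Figure D3:**
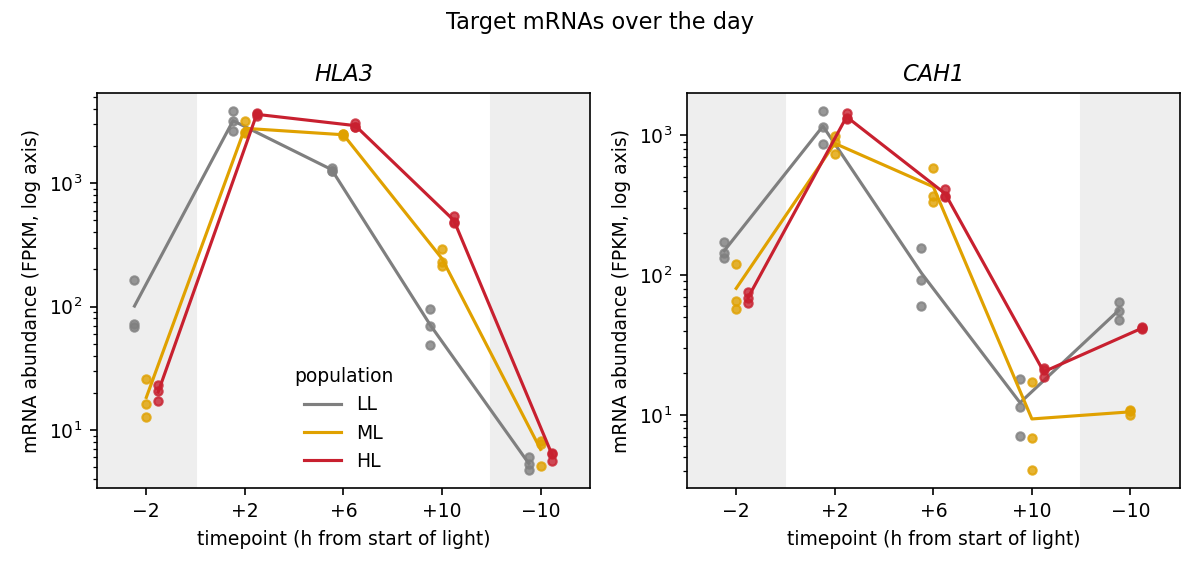
mRNA abundance (FPKM, log axes) of *HLA3* and *CAH1* at 5 timepoints in LL, ML, and HL; points are single libraries (n = 3), lines join the means, and grey bands mark the dark. *HLA3* goes from 6.94 FPKM at −10 to 2785 at +2 in ML, and *CAH1* is lowest at +10 in all 3 populations.

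*CAH1* encodes the periplasmic carbonic anhydrase, which interconverts CO2 and bicarbonate outside the plasma membrane. A near-identical neighbour, *CAH2*, can share reads with it, so its values are less certain. At +2, the means were 1162 ± 308 FPKM in LL, 875 ± 127 in ML, and 1356 ± 76.3 in HL (SD, n = 3 each), and no difference was called. Under quantile normalization HL vs ML was 1.18 (adjusted p = 0.00438 in limma), past the threshold, against 0.64. At +6, the libraries held 92.4, 157, and 60.5 FPKM in LL, 334, 366, and 583 FPKM in ML, and 371, 415, and 362 FPKM in HL. LL lay wholly below the others and *CAH1* fell by 2.10 there (adjusted p = 3.59e-06). ML and HL overlapped at +6, although *LCR1* was higher in every HL library.

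At +10, *CAH1* was near its minimum, with 12.2 ± 5.55 FPKM in LL, 9.35 ± 6.93 in ML, and 20.4 ± 1.61 in HL. The HL increase of 1.25 (adjusted p = 0.00254) was no longer called without replicate 1, at 0.79, or without replicate 2, at 1.13, or with each timepoint modelled alone, at an adjusted p of 0.0479 in limma. At −10, it stood at 55.8, 64.6, and 47.4 FPKM in LL, 10.7, 10.8, and 10.0 FPKM in ML, and 42.4, 41.1, and 41.9 FPKM in HL. LL was highest and ML lowest without overlap, the order of *LCR1* at that time, and *CAH1* rose by 2.29 in LL (adjusted p = 6.11e-07) and 1.89 in HL (adjusted p = 5.45e-05). Increases in HL vs ML at −10 covered 0.781% of genes, and without replicate 1 the HL call of *CAH1* ended on its adjusted p, at a log2 fold change of 1.90. At −2, the means were 149.6 ± 19.5, 80.3 ± 33.8, and 68.9 ± 6.01 FPKM in LL, ML, and HL, and the log2 fold changes from ML, 0.96 in LL and −0.15 in HL, were not called. Without replicate 3, the value in LL was 1.30 at both −2 and +10 and was called.

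The amount of *HLA3* mRNA per *LCR1* mRNA, a ratio of FPKM values within a library, was set side by side between populations. At +2, it was 74.4 ± 7.45 in LL, 74.3 ± 2.89 in ML, and 36.2 ± 1.89 in HL (SD, n = 3 each). Every HL library was below all those of LL and ML, which overlapped. At +6, HL was again below both, at 32.7 ± 1.74 against 46.9 ± 5.29 in LL and 43.1 ± 2.24 in ML. At +10, HL and ML overlapped, at 13.9 ± 0.930 and 13.2 ± 0.200, and LL was lower, at 7.85 ± 1.89. At −10, the ratio was 0.988 ± 0.170 in LL, 3.31 ± 0.994 in ML, and 1.91 ± 0.394 in HL, and at −2 it was 4.33 ± 1.53, 1.34 ± 0.287, and 1.08 ± 0.124. The levels of *LCR1* at +2 in ML and at +10 in HL were alike (37.5 and 36.0 FPKM, in overlapping ranges), whereas *HLA3* was at 2785 FPKM in the first and 499.7 in the second. The test of these ratios between populations was an exact permutation test (two-sided), and with 3 libraries on each side its p cannot go below 0.1. None of 60 such comparisons of ratios could pass, and the lowest adjusted p was 0.154.

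**Figure D4:**
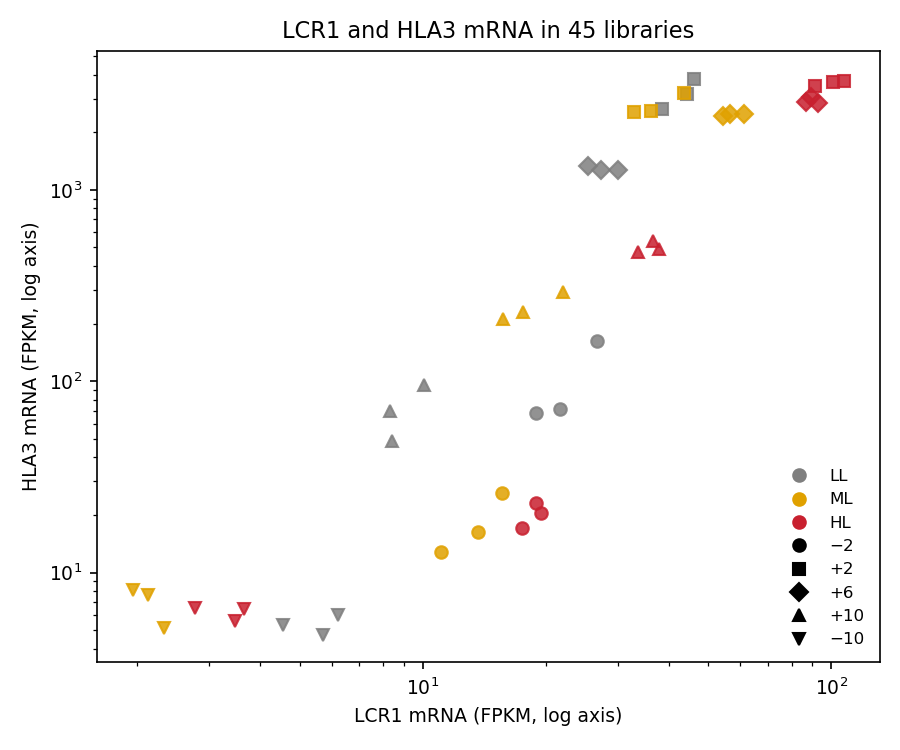
*LCR1* against *HLA3* mRNA abundance (FPKM, both axes logarithmic) in 45 libraries; colours mark LL, ML, and HL and symbols the 5 timepoints. At +10 the 3 populations lie apart, with *HLA3* from 48.4 FPKM in LL to 538 in HL. At +2 the HL libraries hold *LCR1* from 91.4 to 108 FPKM. Their *HLA3* values of 3487 to 3699.6 FPKM lie within the range of 2646 to 3817 in LL.

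Across the 15 group means of log2(FPKM + 1), the Pearson correlation of *LCR1* was 0.91 with *HLA3* and 0.72 with *CAH1*. That of *CCM1* was 0.056 with *HLA3* and 0.45 with *CAH1*. The points share the time of day, so these values are descriptions. Over the 45 deviations of single libraries from their group means, the correlation was 0.64 for *LCR1* with *HLA3*, 0.33 for *LCR1* with *CAH1*, −0.54 for *CCM1* with *HLA3*, and −0.46 for *CCM1* with *CAH1*. The values of a deviation come from 1 library and share its depth and scaling. Within single timepoints these correlations were uneven. For *HLA3*, they ran from −0.97 at −2 to 0.091 at +6 with *CCM1*, and from 0.93 at −2 to −0.35 at +6 with *LCR1*. For *CAH1*, they ran from −0.80 at −2 to 0.069 at −10 with *CCM1*, and from 0.71 at −2 to −0.55 at −10 with *LCR1*. The libraries of −2 include the shallow LL replicate 1.

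Relations were also computed over the 9 libraries of each timepoint, 20 in all. For *LCR1*, at least 1 population stood apart from the others at every timepoint, so none of its 10 relations was read as one across single libraries. For *CCM1*, the populations overlapped at all timepoints but +6, which left 8 relations. One of these passed, a negative relation with *HLA3* at +2 (Pearson's r = −0.77, two-sided exact permutation p = 0.0179, adjusted p = 0.0448; Spearman's rho = −0.73, exact p = 0.0311, adjusted p = 0.0692). Without the 2 libraries farthest from the median of *CCM1*, r was −0.61 (exact permutation p = 0.110, adjusted p = 0.197), which did not pass.

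A list of 7 genes named as LCR1 targets, partly in the study's own text and so not independent of these samples, was set beside *LCR1*. It holds *HLA3* and *CAH1*, the inorganic carbon transport genes *NAR1B* (chloroplast envelope) and *LCI1* (plasma membrane), and the mitochondrial carbonic anhydrase *CAH4*. It also holds *LHCSR3A* and *LHCSR3B*, which encode a light-harvesting protein that dissipates excess excitation. In HL vs ML at +2, where *LCR1* was called, 2 of the 7 increased against 4.51% of all genes, *LHCSR3A* by 1.77 and *LHCSR3B* by 1.97 (adjusted p = 2.21e-07 and 3.05e-08), and the median of the 7 was 0.64 against 0.037 over all genes. *CAH4* was at 1.00, just under the threshold, and *LCI1* and *NAR1B* were at 0.41 and −0.30. In HL vs ML at +10, 5 of 7 increased against 3.24% of all genes, among them *LCI1* by 1.50, although *LCR1* itself was just below the threshold, and the median was 1.10 against −0.042.

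In LL vs ML at +6, where *LCR1* fell, 5 of the 7 decreased against 1.92% of all genes, with a median of −2.10 against −0.0052. *LHCSR3A* fell by 3.85, *LHCSR3B* by 3.87, *CAH4* by 2.66, and *LCI1* by 1.74, each more than *LCR1*. *NAR1B* was at −0.25 and was not called. At +10, with *LCR1* at −0.96, 5 of 7 decreased against 1.38% of all genes, *NAR1B* by 1.45 and *LHCSR3A* by 4.11 among them, with a median of −1.60 against −0.049. In LL vs ML at −10, where *LCR1* rose, *CAH1* alone among the 7 increased, against 2.85% of all genes. The median was −0.15 against 0.026, and the other 6 lay between −0.37 and 0.13. In LL vs ML at −2, 5 of 7 increased against 1.62% of all genes, with *LCR1* at 0.70, *NAR1B* by as much as 2.92. The LL libraries were spread widely there, from 27.8 to 103.6 FPKM for *NAR1B* and from 9.26 to 39.97 FPKM for *LCI1*. They include the shallow replicate 1, and the count of 5 was not repeated without it. In HL vs LL, where *LCR1* was called at +2, +6, and +10, 3, 6, and 6 of the 7 increased against 2.75%, 1.94%, and 2.23% of all genes, with medians of 0.25 against 0.022, 2.48 against 0.037, and 2.25 against 0.027 over all genes. At +10 these reached 5.44 for *LHCSR3A* and 2.04 for *NAR1B*. *LHCSR3A* and *LHCSR3B*, and *CAH4* and *CAH5*, are near-identical pairs whose reads may be split.

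**Figure D5:**
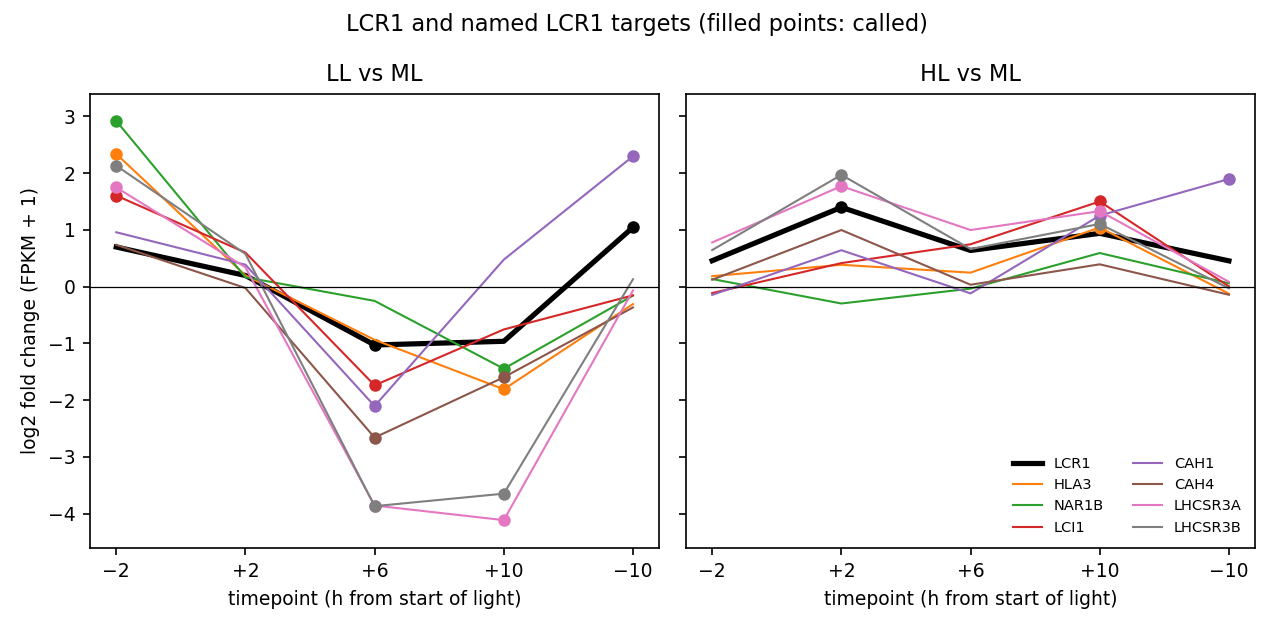
Log2 fold changes of log2(FPKM + 1) from ML in LL and in HL at 5 timepoints for *LCR1* (thick black line) and the 7 genes named as its targets; filled points passed the limma test. In LL the lines run from above 0 at −2 to below 0 at +6, where *LHCSR3B* is at −3.87, and at −10 only *LCR1* and *CAH1*, at 1.04 and 2.29, are filled.

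A wider list of 15 carbon concentrating genes held the transporters, the carbonic anhydrases, the LCIB family, which acts around the pyrenoid, and the carrier proteins CCP1 and CCP2. In HL vs ML at +2, none increased, against 4.51% of all genes. *CAH2*, a periplasmic carbonic anhydrase, fell by 1.92 (adjusted p = 3.3e-11), and the list median was 0.34 against 0.037 over all genes. At +10 in the same comparison 9 of 15 increased against 3.24% of all genes, with a median of 1.06 against −0.042. In HL vs LL at +2, *CAH4* and *CAH5* increased, by 1.02 and 1.17, against 2.75% of all genes, with a median of −0.011 against 0.022. In HL vs LL at +6, 9 of 15 increased, against 1.94% of all genes, and none decreased, with a median of 1.13 against 0.037, and the log2 fold changes ran from 1.02 for *LCID1* to 2.85 for *LCIE1*. The others were *HLA3* (1.18, and 1.14 and not called without replicate 2), *LCI1*, *CCP1* (1.77), *CAH1*, *CAH4*, *CAH5*, and *CAH3*, the carbonic anhydrase of the thylakoid lumen (1.13). At +10, 9 again increased, against 2.23% of all genes, now with *CCP2* (3.30) and *NAR1B* but without *CAH1* and *CAH3*, and *CAH2* fell by 1.68, with a median of 1.44 against 0.027. In LL vs ML at +6, 6 decreased, against 1.92% of all genes (*CCP1*, *LCI1*, *CAH1*, *LCIE1*, *CAH5*, and *CAH4*, from −1.47 to −2.66) and *CAH6*, a chloroplast carbonic anhydrase, rose by 1.02, with a median of −0.62 against −0.0052. At +10, 6 decreased (*HLA3*, *NAR1B*, *CCP1*, *CCP2*, *CAH4*, and *CAH5*) against 1.38% of all genes, and 3 increased (*LCIC1*, *CAH2*, and *CAH6*, from 1.02 to 1.11) against 3.57%, with a median of −0.31 against −0.049. At −10, *CAH1* was again the only one of the 15 called, against 4.85% of all genes, with a median of −0.12 against 0.026. The pairs *CCP1* and *CCP2* and *LCID1* and *LCIE1* are also near-identical.

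*RHP1* encodes a CO2 channel, and the study used its mRNA and its protein as a marker of high CO2 in the cell. Its mRNA moved against *LCR1* where both were called. In HL vs ML at +2 it fell by 1.42 (adjusted p = 4.52e-15), and in HL vs LL it fell by 1.04 at +6 and 1.10 at +10. In LL vs ML it was at 0.94 at +6, just under the threshold, where *LCR1* fell, and at 0.60 at −10, where *LCR1* rose.

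The summed level of 9 genes of DNA replication and mitosis also differed between populations at some of these times. It ranged from 561 to 891 FPKM in LL, 1146 to 1351 in ML, and 1242 to 1335 in HL at +10, and from 9.32 to 9.51 in LL, 31.3 to 112 in ML, and 16.0 to 22.1 in HL at −2. At −2, 8 of the 9 decreased in LL vs ML, against 1.33% of all genes. At +2 the sums were at most 10.7 FPKM in every population. The part of these differences in the values of *LCR1*, *HLA3*, and *CAH1* was not tested.

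The genes most like each regulator were ranked by Pearson's r over the 15 group means, among 14601 others. Those with a symbol nearest to *CCM1* were *CYP97A5*, which encodes a cytochrome P450 (r = 0.97, second of all genes), *CGL19*, annotated as a DOF-type transcription factor (0.97), and *GUK1*, a guanylate kinase (0.96). *HLA3* ranked 6668th and *CAH1* 2678th by the same measure, and *LCR1* had r = 0.13 with *CCM1*. Those nearest to *LCR1* were *AKC1*, annotated as an ABC1-type kinase (0.96), *CGL28*, a putative RNA-binding protein (0.96), and *PHT4D*, a phosphate transporter (0.95). *LHCSR3B* ranked 13th and *LHCSR3A* 17th for *LCR1*, *HLA3* 89th, *NAR1B* 230th, *LCI1* 319th, *CAH4* 421st, and *CAH1* 1904th. By Spearman's rho over the same means, none of the 3 genes named for *CCM1* and 1 of the 3 for *LCR1* were again among the nearest 3 with a symbol.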

How the data were processed

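Poly(A) RNA was sequenced in 45 libraries, and the authors mapped the stranded reads to the CC-4532 genome with STAR 2.4.0j (annotation version 6.1) and made the deposited FPKM values with Cuffdiff 2.0.2. The table with 1 FPKM value per gene and library was used. The deposited table of group means was not used, and neither were read counts, so the study's DESeq2 test was replaced. FPKM values depend on the authors' gene models and on how reads were divided between near-identical genes. Groups and replicate numbers came from the labels.

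The logarithm log2(FPKM + 1) was fitted with 15 group means and a trended prior in limma (3.58.1, under R 4.3.3), for the 14602 genes that reached 1 FPKM in 3 or more libraries. A call needed a log2 fold change above 1 in size and, after Benjamini-Hochberg adjustment, a p below 0.01, and interactions and F tests needed the adjusted p alone. Ratios, ranges, and correlations were computed in Python 3.11.15 (scipy 1.17.1, numpy 2.4.6, pandas 2.3.3). Depth was estimated from 14666 low values of 666 genes, 73.8% of which were within 0.1 of a whole multiple of 1 step. The steps and the depths were fitted to these same values, so this share is no independent check of the estimate. Depth limits the precision of low FPKM, most of all in LL replicate 1 at −2. The limma step was tested on simulated data.

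The genes named were *CCM1*, *LCR1*, *HLA3*, and *CAH1*, the members of the carbon concentrating list and of the LCR1 target list that were called where a regulator was or at +2 in HL, and for each regulator the 3 genes with a symbol of highest correlation over the group means. Other list members are given as values beside them. The division markers were *MCM2* to *MCM7*, *CDKB1*, *CYCA1*, and *CYCB1*, and 1 further listed marker was not matched. The regulators and lists were chosen with earlier results of these data known. Alternatives were pseudocounts of 0.1 and 0.01, no filter or a filter at a mean of 5 FPKM, quantile normalization, median scaling, a threshold of 0.05, a fit without trend, separate fits per timepoint, a replicate block, a random culture effect, and the omission of each replicate. Leaving out LL replicate 1 at −2 was added after the data had been seen.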

Additional observations from a re-analysis of the deposited data

Results flagged for a closer look

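The light effect on *LCR1* differed between timepoints by the interaction test of limma with Benjamini-Hochberg adjustment in 4 cases. The HL vs ML effect at +2 was larger than that at −2 by 0.94 on the log2 scale (adjusted p = 0.00015) and larger than that at +6 by 0.76 (adjusted p = 0.00122). The LL vs ML effect at +2 was above that at +6 by 1.22 (adjusted p = 1.39e-06) and above that at +10 by 1.16 (adjusted p = 2.23e-06). Each contrast draws on 12 libraries, and all 4 share the 3 ML libraries of +2. In the order given, such differences were called for 15.6%, 19.2%, 22.4%, and 34% of all genes. The first HL call was lost without replicate 2. The second was lost without replicate 1 or 2 and under quantile normalization.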

How the results depend on the processing

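Of the results on *CCM1* and *LCR1*, 1023 values under the alternatives kept direction and side of the threshold, 10 were weaker, 7 stronger, and 16 reversed. All reversed values but 1 concern *CCM1*, for differences below the fold threshold. Under median scaling, HL vs ML at +6 was −0.039, and the step from +10 to −10 was 0.19 in LL and 0.27 in HL. Under quantile normalization, LL vs ML at +2 was 0.075, the step from +10 to −10 was 0.080 in LL and 0.17 in HL, and the step from −2 to +2 in HL was −0.10. In the fit as given, that last step was 0.23 (adjusted p = 0.0356 in limma). Scaling moved the median gene of no light comparison by more than 0.08. The same shift was not computed for the steps of the day.

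For *LCR1*, median scaling put LL vs ML at −10 at 0.998, just under the threshold. Quantile normalization gave 0.96 there, −0.80 for LL vs ML at +6, and 0.996 for HL vs LL at +2, all no longer called, 0.57 for the excess of the HL effect at +2 over +6, and 0.12 for the step from +2 to +6 in HL. With pseudocounts of 0.1 and 0.01, LL vs ML at +10 was called at −1.03 and −1.04. At an adjusted p threshold of 0.05, the HL effect at +2 exceeded that at +10 by 0.46 and the LL effect at +2 differed from that at −2 by −0.50. Without LL replicate 1 at −2, the step from −2 to +2 in LL was 1.05.

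With each replicate left out, *LCR1* lay between −1.06 and −0.98 in LL vs ML at +6, −1.02 and −0.92 at +10, and 0.92 and 1.20 at −10, and between 0.82 and 1.11 in HL vs ML at +10. The excess of its HL effect at +2 lay between 0.90 and 0.99 over −2 and between 0.70 and 0.85 over +6. *CCM1* lay between −0.17 and 0.077 in HL vs LL at −10, −0.042 and 0.13 in HL vs ML at −2, −0.24 and 0.029 in LL vs ML at −10, −0.033 and 0.23 in LL vs ML at −2, and, for the step from +10 to −10, −0.12 and 0.038 in HL and −0.19 and 0.095 in LL. Of the targets, *CAH1* in HL vs ML turned to 0.14 under quantile normalization and ranged from −0.27 to 0.16 over the omissions at +6 and from −0.35 to 0.23 at −2, and *HLA3* in HL vs ML at −10 ranged from −0.34 to 0.041. The correlation of *CCM1* at −2 without the 2 farthest libraries was 0.59 with *HLA3* and 0.63 with *CAH1*.

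Same-numbered libraries of a timepoint correlated between −0.06 and 0.33 in their deviations (median 0.04). Those with different numbers correlated between −0.32 and 0.23 (median −0.02). Of 45 libraries, 29 correlated best with their own of the 3 numbers. The numbers were not taken to pair the samples in the main fit, but these values do not show that same-numbered libraries are unrelated. With the replicate block, calls moved from 1096 to 1100 genes in LL vs ML at +2 and from 871 to 872 in HL vs ML at +2, and *LCR1* in HL vs ML at +2 stayed at 1.40. The block changed no call of *CCM1* or *LCR1*. The cause of the changes above was not tested. Low values, such as those of *LCR1* and *HLA3* at −10, are those that depth limits most.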
